A study of Mus musculus with 4 samples.

Results

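The 32 genes described here encode proteins that copy the genome in S phase or act beside that process. The latter serve nucleotide supply, chromatin assembly, histone mRNA, repair, checkpoint, turnover and transcription. All 32 were chosen by symbol from a list of replication genes, out of 32285 genes in the matrix. All 32 symbols were found once each, and all 32 passed the minimum of 200 unique molecular identifiers (UMIs) over all libraries. Mouse embryonic stem cells of the male line E14tg2a.4 and a gene-trap line made from it were profiled by droplet sequencing of transcript 3' ends. The labels list 2 WT replicates and 2 Srrm2 hKO replicates. Srrm2 hKO cells (Srrm2+/-, line CG0630) carry a heterozygous gene trap that truncates Srrm2, a splicing factor gene, and they descend from a single clone, so clone and genotype cannot be told apart. Both lines were grown on gelatin with LIF and then in serum-free medium with LIF. The labels give that last step as 24 h or 72 h without saying which sample had which, and the study's methods for these libraries give another single length. The study thawed batches frozen at different passages as its replicates, with the WT line at higher passage numbers than the Srrm2+/- line.

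DNA is copied from origins that are prepared before S phase. The origin recognition complex, CDC6 and CDT1 load the ring of MCM proteins, which becomes an active helicase when CDC45 and the GINS complex join it, and polymerases held by the PCNA clamp then copy both strands. Transcription of many of these genes rises at the G1/S boundary under E2F factors, and embryonic stem cells are known for a short G1 phase and for high levels of replication proteins over most of their cycle.

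Each barcode carries a library number from 1 to 4, and neither the labels nor the files tie these numbers to WT or Srrm2 hKO. No library was therefore assigned to a genotype, no test of genotype was made, and every value below belongs to a library, a cluster or a group of cells. The cell filter as the study's methods word it left 31989 of 41142 barcodes, more than the study itself gives after quality control, or 7464 to 8514 cells per library with 166839268 to 200180473 UMIs and a median of 18378 to 21897 UMIs per cell. Levels are UMIs per 1000000 UMIs of the kept cells (CPM), with exact 95% Poisson intervals, and ratios carry exact 95% conditional binomial intervals. All these intervals cover counting error only, not the spread between cultures. Among kept cells, 105 barcode sequences occurred in more than 1 library. Srrm2 itself stood at 387, 533, 238 and 356 CPM in libraries 1 to 4. The core pluripotency genes Pou5f1, Sox2, Sall4 and Utf1 were detected in every library, and their summed level was 1636 to 1954 CPM.

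The promoters of these genes are shown first, because binding sites for E2F factors are the sequence feature that replication genes are best known to share. RefSeq promoter windows on GRCm38.p6, from 250 bases before to 50 bases after the start, were found for 28 of the 32 genes. Both strands were searched for the E2F letters TTTGGCGC, TTTCCCGC, TTTCGCGC and TTTGCCGC, which can overlap one another. At least 1 match stood in a window of 12 of the 28 genes (42.9%), namely Mcm3, Mcm5, Mcm6, Mcm7, Cdc6, Cdt1, Pola1, Pold1, Lig1, Msh6, Clspn and Dtl. The same letters stood in 704 of 27025 genes with such a window (2.6%), in 510 of the 11008 with at least 200 UMIs (4.6%), and in 15 of 43 other replication genes (34.9%). Among genes of the G2/M list, which peak later in the cycle, 1 of 22 held a match. The CHR letters TTTGAA and TTCGAA, known from late cell cycle promoters, stood in 17 of 22 G2/M genes and in 4 of 28 replication genes (14.3%), the latter near the 16.3% of genes with at least 200 UMIs. CCAAT stood in 18 of the 28 genes (64.3%), against 43.3% of genes with at least 200 UMIs. GGGCGG stood in 20 (71.4%), near the 68.6% of genes with at least 200 UMIs. A match is a run of letters and not a shown binding site. Sequences are given for Cdc6 and Mcm6, which hold E2F letters, and for Slbp and Ung, which hold none in this window. Cdc6, Slbp and Ung had the 3 highest median folds of the 32 in the measure of co-expression given further on, so that both kinds of window are among them. Capitals mark the E2F letters on either strand, and each sequence runs 5' to 3' on the strand of its gene.
Cdc6, chr11:98907901-98908200, plus strand: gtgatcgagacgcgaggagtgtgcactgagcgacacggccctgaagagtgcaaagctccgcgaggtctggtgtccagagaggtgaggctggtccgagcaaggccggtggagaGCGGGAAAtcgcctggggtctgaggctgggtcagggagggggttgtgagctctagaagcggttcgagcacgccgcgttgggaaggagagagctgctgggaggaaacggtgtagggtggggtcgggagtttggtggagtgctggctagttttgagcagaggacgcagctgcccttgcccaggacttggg
Mcm6, chr1:128359656-128359955, minus strand: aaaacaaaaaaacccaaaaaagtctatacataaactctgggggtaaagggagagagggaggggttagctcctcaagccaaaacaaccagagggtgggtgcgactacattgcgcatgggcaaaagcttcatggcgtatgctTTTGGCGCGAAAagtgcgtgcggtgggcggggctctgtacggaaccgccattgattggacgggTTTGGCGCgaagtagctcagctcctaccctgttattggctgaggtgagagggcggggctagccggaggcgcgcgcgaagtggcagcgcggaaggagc
Slbp, chr5:33652525-33652824, minus strand: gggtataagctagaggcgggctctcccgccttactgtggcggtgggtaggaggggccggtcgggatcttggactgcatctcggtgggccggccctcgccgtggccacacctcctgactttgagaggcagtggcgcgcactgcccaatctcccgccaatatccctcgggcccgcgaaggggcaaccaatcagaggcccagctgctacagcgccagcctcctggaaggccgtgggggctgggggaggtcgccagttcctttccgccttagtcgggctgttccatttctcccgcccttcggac
Ung, chr5:114130185-114130484, plus strand: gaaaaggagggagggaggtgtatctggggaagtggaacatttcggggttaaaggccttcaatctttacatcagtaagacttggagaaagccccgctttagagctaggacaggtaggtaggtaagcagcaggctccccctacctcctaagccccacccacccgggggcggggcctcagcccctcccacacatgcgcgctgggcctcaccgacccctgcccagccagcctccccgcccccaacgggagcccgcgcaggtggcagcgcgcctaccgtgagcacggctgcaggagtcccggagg
The match in Cdc6 lay 138 bases before the RefSeq start. RefSeq starts can differ from the annotation used for gene positions, where Cdc6 spans chr11:98907801-98923940 and so holds its whole window. Mcm6 held 3 matches, of which 2 overlap on opposite strands and the third lies 47 bases before the start.

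Together the 32 genes held a steady share of the transcriptome. Their summed level was 3678 CPM in library 1, 3762 in library 2, 3400 in library 3 and 3423 in library 4, which is 0.340 to 0.376% of all UMIs. The highest was 1.11 times the lowest (1.1 to 1.11), with libraries 1 and 2 above libraries 3 and 4. Taken gene by gene, the highest library was a median of 1.25 times the lowest, against 1.52 over 14525 genes with at least 200 UMIs. A ratio of at least 1.5 was seen for 2 of the 32 genes (6.25%), against 51.7% of all those genes. Genes near the limit of 200 UMIs have far fewer counts than the 32, and counting noise widens this ratio at low counts. The part of expression level in the contrast was not tested. The 54 other replication genes on a second list stood between, with a median of 1.31 and 15 genes at 1.5 or more.

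**Figure D1:**
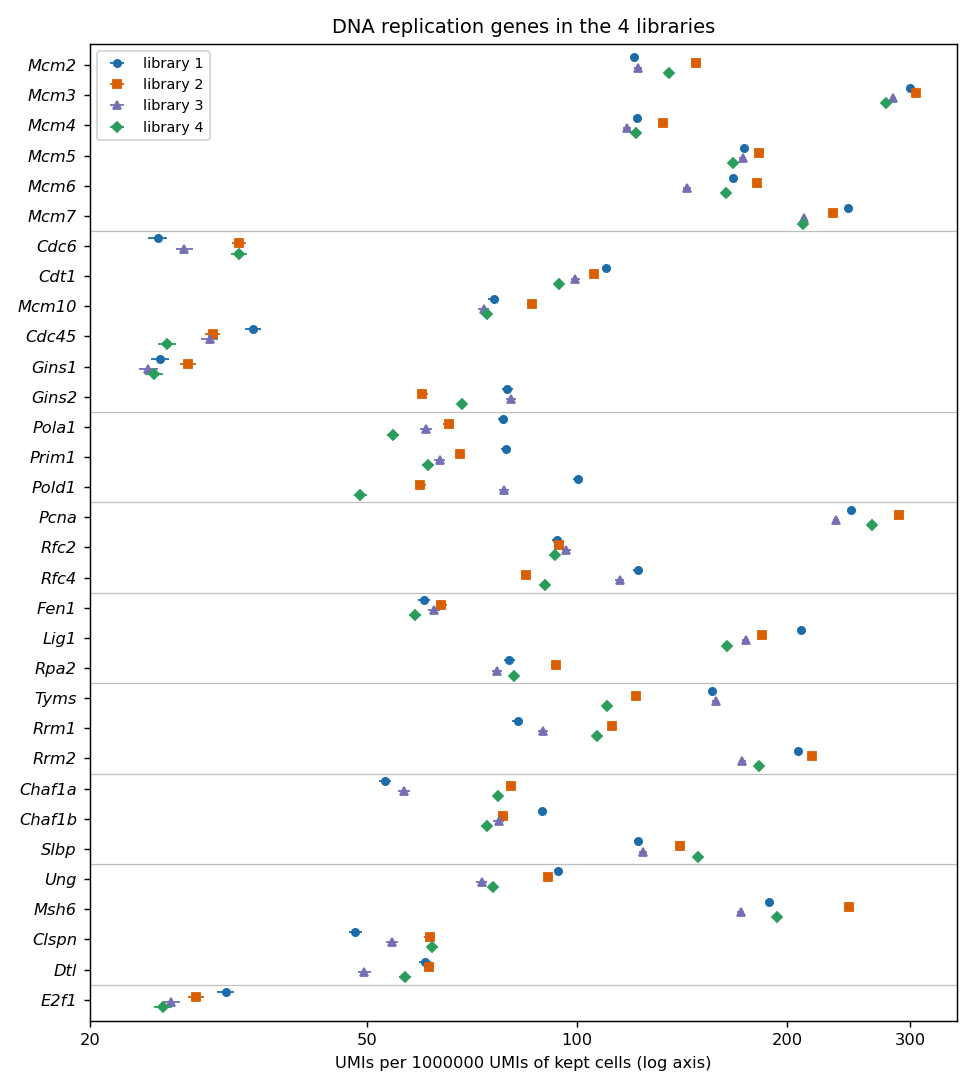
Level of each of the 32 genes in the 4 libraries, in UMIs per 1000000 UMIs of kept cells on a log axis, with horizontal bars for exact 95% Poisson intervals (mostly narrower than the symbols) and grey lines between functional groups. Most genes stand within a narrow span across libraries, and Pold1 has the widest, from 48.9 CPM in library 4 to 100.3 in library 1.

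The replicative helicase ring, the 6 MCM proteins that unwind the double helix, varied little. Its sum was 1127, 1182, 1052 and 1075 CPM in libraries 1 to 4, and its highest library was 1.12 times the lowest. Mcm5 had the smallest span of the ring, at 174, 182, 173 and 167 CPM. For Mcm2, Mcm3, Mcm4, Mcm6 and Mcm7 the highest library was 1.1 to 1.26 times the lowest. All 6 subunits work in equal numbers in the assembled ring, and library 2 was highest for 5 of them while library 1 was highest for Mcm7.

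The loading and activating factors summed to 350, 342, 334 and 320 CPM, a span of 1.09-fold, but the sum hid members that differed in order. Gins1, a subunit of the GINS complex, had the smallest span at 25.2, 27.6, 24.3 and 24.7 CPM. Its partner in that complex, Gins2, stood at 79.4, 59.9, 80.4 and 68.4 CPM, so that libraries 1 and 3 were above libraries 2 and 4. Cdc6, which loads the ring, had another order again, with 25, 32.7, 27.3 and 32.8 CPM and libraries 2 and 4 on top. Cdc45, the helicase activator, was highest in library 1 and lowest in library 4, a span of 1.33-fold. Cdt1, the second loader, and Mcm10, which helps to start the helicase, both spanned 1.17-fold.

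The polymerases and primase had the widest span of any group, 1.57-fold (1.54 to 1.59), with sums of 258, 193, 203 and 164 CPM. Pold1, the catalytic subunit of DNA polymerase delta (chr7:44532746-44548849, minus strand, GRCm38), carried most of it. Its levels were 100.3, 59.5, 78.5 and 48.9 CPM, and no interval of 1 library overlapped that of another. The ratio of library 1 to library 4 was 2.05 (2.00 to 2.11), the widest among the 32. Pola1, the catalytic subunit of polymerase alpha, spanned 1.44-fold and Prim1, the primase that lays down the first RNA bases, had the smallest span of the group at 79.0, 67.9, 63.5 and 61.1 CPM. For Pold1, Pola1 and Prim1 alike, library 1 stood on top and library 4 at the bottom. Pold2, the partner subunit of Pold1 and not among the 32, had the same order as Pold1, with 129, 80.2, 102 and 73.1 CPM.

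Clamp and clamp loader genes had the smallest span of any group, 1.05-fold, while its members moved in different directions. Rfc2, a subunit of the loader, was the steadiest of all 32 genes, at 93.4, 94.0, 96.5 and 92.8 CPM. Rfc4, a subunit of the same loader, stood at 122, 84.3, 115 and 89.8 CPM, with libraries 1 and 3 above libraries 2 and 4. Pcna, the sliding clamp, was instead above in libraries 2 and 4, at 247, 289, 235 and 265 CPM. Pcna has 2 annotated pseudogenes by name, and the part of reads shared with them was not tested.

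Fen1, which removes flaps from the lagging strand, stayed within 1.09-fold at 60.3, 63.8, 62.3 and 58.5 CPM. Lig1, the ligase that seals the lagging strand, spanned 1.28-fold and Rpa2, a subunit of the single-strand binding complex, 1.21-fold. Among genes of nucleotide supply, Rrm2, the regulated subunit of ribonucleotide reductase, had the smallest span at 207, 217, 172 and 182 CPM. Its partner subunit Rrm1 spanned 1.37-fold with libraries 2 and 4 on top. Tyms, thymidylate synthase, spanned 1.43-fold with libraries 1 and 3 on top, at 156, 122, 158 and 110.3 CPM. Tyms has an annotated pseudogene by name and is uncertain to that extent.

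Chromatin assembly gave the second gene past 1.5-fold. Chaf1a, the large subunit of the histone chaperone CAF-1 (chr17:56040439-56072289, plus strand, overlapped on the other strand by Ubxn6), stood at 53.0, 80.3, 56.5 and 77.0 CPM. Libraries 2 and 4 were above libraries 1 and 3 with no overlap of intervals, and the ratio of library 2 to library 1 was 1.51 (1.47 to 1.55). Chaf1b, the middle subunit of the same complex, had the smallest span of this group, at 89.1, 78.2, 77.1 and 74.1 CPM, and its libraries came in the order of Pola1 and Prim1. Slbp, which binds the stem-loop of histone mRNAs, spanned 1.22-fold with libraries 4 and 2 on top.

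Of the repair, checkpoint and turnover genes, Dtl, which targets CDT1 for destruction, had the smallest span, at 60.4, 61.3, 49.5 and 56.6 CPM. Ung, the uracil glycosylase that acts behind the fork, spanned 1.29-fold, as did Clspn, the fork checkpoint mediator, at 1.29-fold. Msh6, a mismatch recognition subunit (chr17:87975062-87990892, plus strand, overlapped on the other strand by Fbxo11), stood at 188, 245, 172 and 193 CPM. Library 2 stood above the other libraries for Msh6, with no overlap of intervals. E2f1, the transcription factor, stood at 31.3, 28.4, 26.2 and 25.5 CPM in the order of Pola1 and Prim1.

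Library differences were not shared by all 32 genes. The 2 highest libraries were libraries 1 and 2 for 17 genes, libraries 2 and 4 for 9, libraries 1 and 3 for 4 and libraries 2 and 3 for 2. Over all genes with at least 200 UMIs, the 2 highest were libraries 2 and 4 for 39.0%, libraries 1 and 3 for 24.6%, libraries 3 and 4 for 18.3% (0 of the 32), libraries 1 and 2 for 11.4% and libraries 2 and 3 for 4.43%. Of the 54 other replication genes, 27 were highest in libraries 2 and 4 and 11 in libraries 1 and 2. The 9 genes with libraries 2 and 4 on top were Mcm2, Cdc6, Pcna, Rpa2, Rrm1, Chaf1a, Slbp, Msh6 and Clspn, and the 4 with libraries 1 and 3 on top were Gins2, Pold1, Rfc4 and Tyms.

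Pairs of libraries were then set side by side. A gene was counted as higher or lower when its ratio was at least 1.2 and its 95% interval excluded 1, which compares 2 libraries and not the conditions. In library 2 against library 1, 6 replication genes were higher and 4 lower, against 38.5% higher and 21.7% lower of all genes. In library 3 against library 1, 0 were higher and 7 lower (25.8% and 13%). In library 4 against library 1, 5 were higher and 10 lower (42.5% and 23.9%). In library 3 against library 2, 4 were higher and 10 lower (25.9% and 30.1%), in library 4 against library 2, 0 were higher and 3 lower (22.3% and 13.5%), and in library 4 against library 3, 2 were higher and 3 lower (32.4% and 23.8%). In each pair the share of higher replication genes was below that of all genes, and 54 of 192 gene and pair combinations were counted in all. The scaling matters here, because the median gene stood 0.16 above library 1 in library 4 and 0.13 above it in library 2 on the log2 scale. Scaled to the median gene, the counts of higher and lower genes in the same order of pairs were 2 and 10, 0 and 12, 1 and 14, 4 and 5, 0 and 4, and 1 and 5. The shares of all genes given above belong to the first scaling and cannot be set beside these counts.

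The other replication genes that differed most were 15 with a ratio of at least 1.5. Pclaf, a PCNA-binding factor, stood at 76.0, 134, 121 and 205 CPM. The G1/S cyclin gene Ccne1 stood at 101, 238, 132 and 226 CPM and its relative Ccne2 at 5.27, 8.56, 6.23 and 9.53. Hells, a chromatin remodeller, stood at 335, 578, 352 and 708 CPM. Libraries 2 and 4 were above libraries 1 and 3 for these 4 genes. The same was true of Recql4, Donson, Exo1, Dna2, Orc2, Dut and Cdca7, with ratios of 1.55 to 1.97. Libraries 1 and 3 were above libraries 2 and 4 for Pold2, Rnaseh2a, Mcm8 and Rpa3, with ratios of 1.5 to 1.77.

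Cell states came from clusters built without the replication genes and the other cell cycle genes of the lists. Clusters 1 and 2 had high naive pluripotency genes, summed over 11 markers to 1989 and 1924 CPM. Cluster 1 held 7649 cells of library 1 and 5786 of library 3, and cluster 2 held 6918 cells of library 2 and 183 of library 4. Cluster 3, with 1515 cells of library 2 and 3473 of library 4, had naive genes at 394 CPM and formative genes such as Fgf5 at 1546 CPM. Cluster 4 held 3668 cells of library 4, with naive genes at 1609 CPM. Cluster 5 held 2056 cells of library 3 and 446 of library 1, with keratin and contractile genes such as Krt8 and Acta2 at 3863 CPM against 120 in cluster 1. Because most clusters come from 1 or 2 libraries, states were compared only within a library. The summed level of the 32 genes was 3645, 3757, 3510, 3511 and 3076 CPM in clusters 1 to 5. Clusters 6 and 7 had 109 and 52 cells, too few in any library for the comparisons of states, and stood at 2433 and 3010 CPM.

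Within a library, cluster 3 had nearly the same summed level of replication genes as cluster 2, whereas cluster 5 of library 3 had less than cluster 1. For cluster 3 against cluster 2, the summed ratio was 1.01 in library 2 and 0.990 in library 4. In library 2, 4 genes were higher and 2 lower, against 32.4% and 19.4% of all genes, and in library 4, where cluster 2 had only 183 cells, 6 were higher and 4 lower (27.6% and 17%). Without cells over 2 times the median UMI count, these counts in library 4 became 11 and 3. For cluster 5 against cluster 1 in library 1, the summed ratio was 0.968, with 4 higher and 4 lower (34.7% and 21.6%). In library 3 the same comparison gave 0.839 (0.835 to 0.844), with 1 higher and 16 lower (39.4% and 20.8%). For cluster 4 against cluster 2 in library 4, 4 genes were higher and 0 lower (7.39% and 11.9%), and without cells over 2 times the median UMI count or without the mitochondrial limit 11 were higher and 0 lower. For cluster 4 against cluster 3, 5 were higher and 2 lower (17.1% and 35.1%). Scaled to the median gene, the counts in the order given were 1 and 6, 5 and 5, 2 and 12, 0 and 22, 3 and 1, and 11 and 1. The shares of all genes in this paragraph are for the first scaling and the main choice of cells. They cannot be set beside the counts scaled to the median gene. Nor can they be set beside the counts without cells over 2 times the median UMI count or without the mitochondrial limit. Cluster 5 of library 3 is split into finer clusters further on.

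Msh6 and Gins2 stood at the ends in all 4 of the comparisons of cluster 3 or 5 with cluster 2 or 1. Msh6 was the lowest of the 32, with 106 against 195 CPM in library 1, 192 against 258 in library 2, 99.9 against 206 in library 3 and 151 against 282 in library 4. Those are ratios of 0.545, 0.744, 0.485 and 0.536. Gins2 was the highest of the 32 (chr8:120578633-120589304, minus strand, overlapped on the other strand by Gse1), with 109 against 76.9 CPM in library 1, 84.5 against 54.2 in library 2, 93.7 against 74.2 in library 3 and 79.7 against 45.5 in library 4. Those are ratios of 1.42, 1.56, 1.26 and 1.75. Cluster 4, which kept high naive genes, had Msh6 at 235 CPM, between clusters 2 and 3 of its library. Pola1 was below 1 in all 4 comparisons, at 0.699, 0.884, 0.648 and 0.75, and Clspn above 1, at 1.29, 1.2, 1.07 and 1.31.

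**Figure D2:**
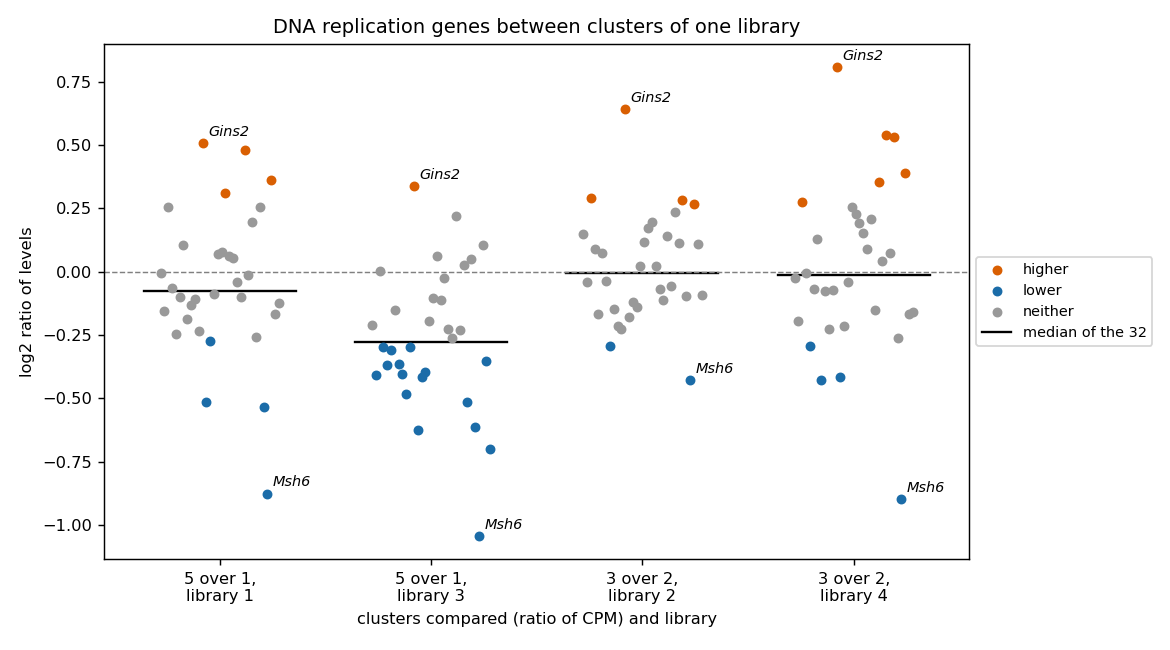
log2 ratio of the level of each of the 32 genes in cluster 5 over cluster 1 (libraries 1 and 3) and in cluster 3 over cluster 2 (libraries 2 and 4), with orange points counted as higher, blue as lower (ratio of at least 1.2 with a 95% interval that excludes 1), grey as neither, and a black line at the median of the 32. Gins2 is the highest and Msh6 the lowest point in each of these 4 columns, and the median lies furthest below 0 for cluster 5 over cluster 1 in library 3.

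Libraries were also compared within a cluster. In cluster 1, library 3 against library 1, 0 of the 32 genes were higher and 0 lower, against 12.1% and 12.1% of all genes, and the summed ratio was 0.973. In cluster 2, library 4 against library 2, 0 were higher and 7 lower (11.2% and 9.52%), with a summed ratio of 0.907. In cluster 3 the same libraries gave 0 and 3 (9.48% and 7.54%), with a summed ratio of 0.891. In cluster 5, library 3 against library 1, 0 were higher and 14 lower (17.1% and 9.56%), the summed ratio was 0.844 and all 32 ratios were below 1. The makeup of cluster 5 differed between these libraries, since 461 of its 2056 cells in library 3 belonged to a finer cluster, fine cluster 7, that held 13 cells of library 1. Within fine cluster 6, which held most of the rest, the sum was 3372 CPM in library 3 and 3616 in library 1, a ratio of 0.932 (0.923 to 0.942), with 0 genes higher and 4 lower (8.73% and 8.19%), namely Cdc45, Pold1, Rrm2 and E2f1. The 14 came from all 9 functional groups, from Mcm4, Mcm7, Cdc45 and Pold1 to Pcna, Lig1, Rrm2, Chaf1b, Ung and E2f1. The summed levels were 3588 CPM in cluster 1 and 3012 in cluster 5 of library 3, against 3688 and 3568 in library 1.

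Cells of cluster 5 in library 3 were not uniform. Each cell was thinned to 5000 UMIs, and the UMIs of the 32 genes were counted. In cluster 1 of library 3 the mean was 18.1 UMIs per cell and the variance 1.57 times the mean, whereas in cluster 5 of library 3 the mean was 14.8 and the variance 3.12 times the mean. In that cluster 249 of 2056 cells (12.1%, exact 95% binomial interval 10.7 to 13.6%) had at most 5 UMIs, where a Poisson count of the same mean gives 0.329%. In cluster 5 of library 1 it was 11 of 446 cells (2.47%, 1.24 to 4.37%), where the Poisson count gives 0.0272%. In cluster 5 of library 4, with a lower mean of 9.23 UMIs, it was 20 of 75 (26.7%, 17.1 to 38.1%), where the Poisson count gives 10.3%. Clusters 1 to 4 had 0.0784 to 1.09% of such cells. Cluster 6 of library 4 had 9 of 58 (15.5%), where the Poisson count gives 4.89%. Its cells had medians of 12288 UMIs and 0.282% mitochondrial UMIs. The limit of 5 UMIs was set after the distribution was seen, 41 cells of that cluster and library lay at the limit and 39 lay 1 UMI above it.

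**Figure D3:**
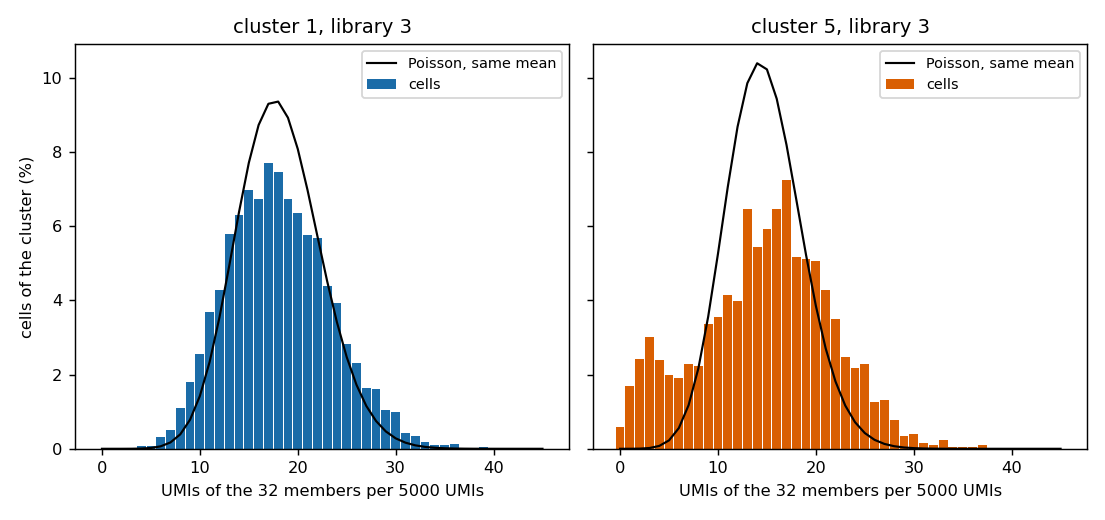
Distribution over cells of the summed UMIs of the 32 genes after thinning each cell to 5000 UMIs, in cluster 1 (left, 5786 cells) and cluster 5 (right, 2056 cells) of library 3, in percent of the cells of each, with a black line for a Poisson distribution of the same mean. Cluster 5 has a second group of cells near 3 UMIs that cluster 1 lacks.

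Finer clusters, again built without the replication genes, placed most of these cells together. At a resolution of 0.4 in place of 0.2, cluster 5 of library 3 split into fine cluster 6 with 1582 cells and fine cluster 7 with 461 cells. Fine cluster 7 held 238 of the 249 cells with at most 5 UMIs and also 223 cells above that limit, whose mean was 11.5 UMIs. All 32 replication genes were lower in fine cluster 7 than in fine cluster 6 of library 3, against 33.6% of 10135 genes lower and 34.2% higher. Their sum was 1671 against 3372 CPM, a ratio of 0.496 (0.488 to 0.503), and the ratios of single genes ran from 0.366 to 0.751. The lowest were Mcm5 (63.2 against 173 CPM), Mcm10 (25.9 against 69.5) and Ung (23.3 against 61.8). The highest were Tyms (110.3 against 147), E2f1 (14.5 against 19.4) and Rrm1 (72.8 against 106). Against fine cluster 3, which held most naive cells of library 3 (5319 cells) at this resolution, 31 of 32 were lower and 0 higher (34.1% and 40%). The sum was 3604 CPM in fine cluster 3, and fine cluster 6 stood at 0.936 of it (0.93 to 0.941), with 2 genes higher, Gins2 and Rrm1, and 6 lower (36% and 19.7%).

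**Figure D4:**
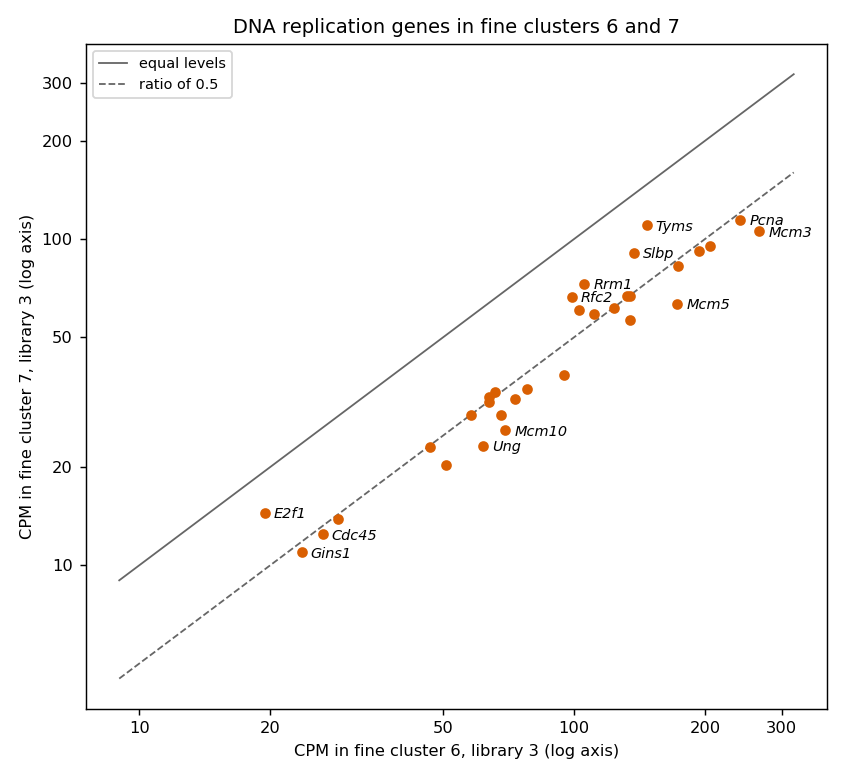
Level of each of the 32 genes in fine cluster 7 (461 cells) against fine cluster 6 (1582 cells) of library 3, both in UMIs per 1000000 UMIs on log axes, with a solid line at equal levels and a dashed line at a ratio of 0.5. Every gene lies below the solid line and most lie near the dashed one.

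The rest of the replication machinery was lower in the same cells. Of the 54 other replication genes, 51 were lower in fine cluster 7 than in fine cluster 6 and 1 was higher, Orc4, a subunit of the origin recognition complex, at 41.4 against 31 CPM. Pole3 and Tcf19 passed neither limit. All 25 genes of the G2/M list were lower, with a summed ratio of 0.536 (0.529 to 0.542). Other marker lists moved with this result. All 8 keratin and contractile genes were higher, among them Acta2 (1754 against 9.94 CPM) and Krt8 (2376 against 286), and all 4 core pluripotency genes were lower, with Pou5f1 at 191 against 644 CPM. All 7 formative genes were lower, and of 11 naive genes 6 were lower and 2 higher. Of 7 primitive endoderm genes 3 were higher and 0 lower, led in level by Dab2 (29.3 against 3.35 CPM), with a sum of 42.2 against 5.07 CPM. Of 6 trophectoderm genes 4 were higher and 0 lower, led in level by Krt7 (73.9 against 5.83 CPM), with a sum of 100.05 against 13.3 CPM. Of 6 fibroblast genes 4 were higher and 1 lower, with a sum of 147 against 3.90 CPM. Col1a1, Col1a2 and Col3a1 stood at 55.2, 71.3 and 18.5 CPM and made up most of that sum. Dcn was higher at a low level, 0.686 against 0.0918 CPM, Lum stood at 0.0858 against 0 CPM, and Thy1 was lower, at 0.772 against 2.46 CPM. The cell cycle inhibitor genes Cdkn1a (400 against 29.4 CPM), Cdkn2a (403 against 11.5) and Cdkn2b (141 against 2.18) were chosen after their values were seen. Median depth was 21819 against 24670 UMIs per cell. The part of another cell type in these differences was not tested.

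Fine cluster 7 was found mostly in library 3, where it held 5.84% of kept cells, with 58 cells (0.777%) in library 4. Its 58 cells of library 4 had the 32 genes at 1850 CPM and keratin and contractile genes at 12952 CPM. Libraries 1 and 2 had 13 and 14 such cells. Without these cells the summed levels were 3682, 3765, 3525 and 3437 CPM in libraries 1 to 4. Library 3 then lay between libraries 1 and 4, and the highest library was 1.1 times the lowest.

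Co-expression was measured from cell to cell. In each library, cells thinned to 5000 UMIs were ranked by the summed UMIs of the other 31 genes, and the mean UMIs of the remaining gene in the top 25% of cells were divided by those in the bottom 25%. The fold was above 1 in every library for 30 of the 32 genes, against 24.4% of other genes ranked by the sum of all 32, and Cdt1 and Pold1 were the exceptions, each just below 1 in a single library. The median over the 32 was 1.34, 1.31, 1.49 and 1.41 in libraries 1 to 4, against 1.03, 1.04, 1.01 and 1.03 over all genes tested. A fold of at least 1.5 in every library was reached by 4 genes. Cdc6 had 1.79, 2.39, 2.18 and 1.9, Ung had 1.58, 1.55, 2.36 and 1.91, Slbp had 1.71, 1.88, 1.69 and 1.78, and Mcm4 had 1.55, 1.6, 1.74 and 1.74. Of 8355 genes that are not on the list, 5 (0.0598%) reached that fold for the sum of all 32. No replication gene was lower by that fold in every library, against 0.12% of other genes. Cells of the top 25% were shallower before thinning, with medians of 17142 to 20592 UMIs against 19703 to 23332 in the bottom 25%, and the part of depth in the folds was not tested.

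Single pairs of genes had low correlations. Counts per cell were sparse, and their part in the low values was not tested. Mcm3, with the most UMIs of the 32, had a variance of 1.05 to 1.14 times its mean in these libraries. The correlations are given as a description and not as a measure of how closely the genes of a pair move together. Over 496 pairs the median Pearson's r across the 7464 to 8514 cells of a library was 0.0128 to 0.0254 and the highest was 0.105, for Rrm2 and Slbp in library 2, with library and depth shared by all cells. The sum per cell had a variance of 1.61, 1.63, 2.04 and 1.79 times its mean in libraries 1 to 4. Within clusters 1 to 4 the median fold of the 32 was 1.23 to 1.40. Within cluster 5 of library 1 it was 1.38, with 9 genes at 1.5 or more. Within cluster 5 of library 3 it was 2.71, with all 32 genes at 1.5 or more. Among the 1807 cells there with more than 5 UMIs of the 32 genes, it was 1.48, with 15 genes at 1.5 or more. That limit cuts nearly the same sum by which cells are ranked, so a lower fold follows in part from the choice of cells. Split into finer clusters, library 3 had a median fold of 1.33 with 7 genes at 1.5 or more in fine cluster 6 alone. In fine cluster 7 alone it was 5.21 with all 32 genes, and that cluster mixes 238 cells of at most 5 UMIs with 223 above. Folds within clusters were not measured over all genes or over other cell cycle genes. The counts within clusters thus have no share beside them and are not shown to be particular to the 32.

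The genes outside the list that were most like it by this measure were Ncapg2, Wdhd1, Hist1h1a, Hist1h1b and Atad2, ranked by the smallest fold over the 4 libraries among genes with at least 500 UMIs in every library after thinning. Ncapg2, a condensin subunit, had folds of 1.53 to 1.83, and Wdhd1, a replisome scaffold on the second list, 1.52 to 2.35. The linker histone genes Hist1h1a and Hist1h1b had 1.501 to 1.97 and 1.498 to 2.11, so Hist1h1b fell just short of 1.5 in every library. Atad2, a chromatin ATPase also on the second list, had 1.49 to 1.83. Among the 52 genes of the second list that could be measured, Wdhd1 and Ccne2 reached 1.5 in every library. Ccne2 had folds of 1.9 to 3.36, and its smallest fold was above the smallest of each of the 5 genes. It had fewer than 500 UMIs after thinning in at least 1 library.

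Position in the cycle was read from the list of 25 G2/M genes. The summed UMIs of the 32 genes and of the G2/M list had Pearson's r of -0.31, -0.16, -0.03 and -0.14 across the cells of libraries 1 to 4, a description only. In the top 25% of cells by the G2/M list, 5 replication genes were lower by at least 1.2 times in every library, against 0.777% of other genes. They were Cdc45, Gins2, Chaf1b, Slbp and Ung. The count was 11 without library 3, a looser rule since fewer libraries must pass. It was 9 without cluster 5 and 3 between the top and bottom 10% of cells, where Chaf1b, Slbp and Ung were left. Ung had the widest difference, with top over bottom ratios of 0.44, 0.61, 0.54 and 0.63, followed by Chaf1b with 0.54, 0.69, 0.72 and 0.72 and Slbp with 0.61, 0.64, 0.77 and 0.68. Cdc45 and Gins2 had ratios of 0.59 to 0.79. None of the 32 was higher by 1.2 times in every library, against 4.2% of other genes, and 18 of the 32 had a ratio below 1 in every library, against 13.8% of other genes. With cells thinned to 10000 UMIs, Cdc45 no longer reached the limit in every library. Msh6 was the only one at or above 1 in every library, with 1.00, 1.23, 1.31 and 1.22. On the second list, the genes lower in every library included Orc6, Donson and Pclaf, and Dbf4, which activates the kinase that fires origins, was higher, with ratios of 1.31 to 1.85.

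**Figure D5:**
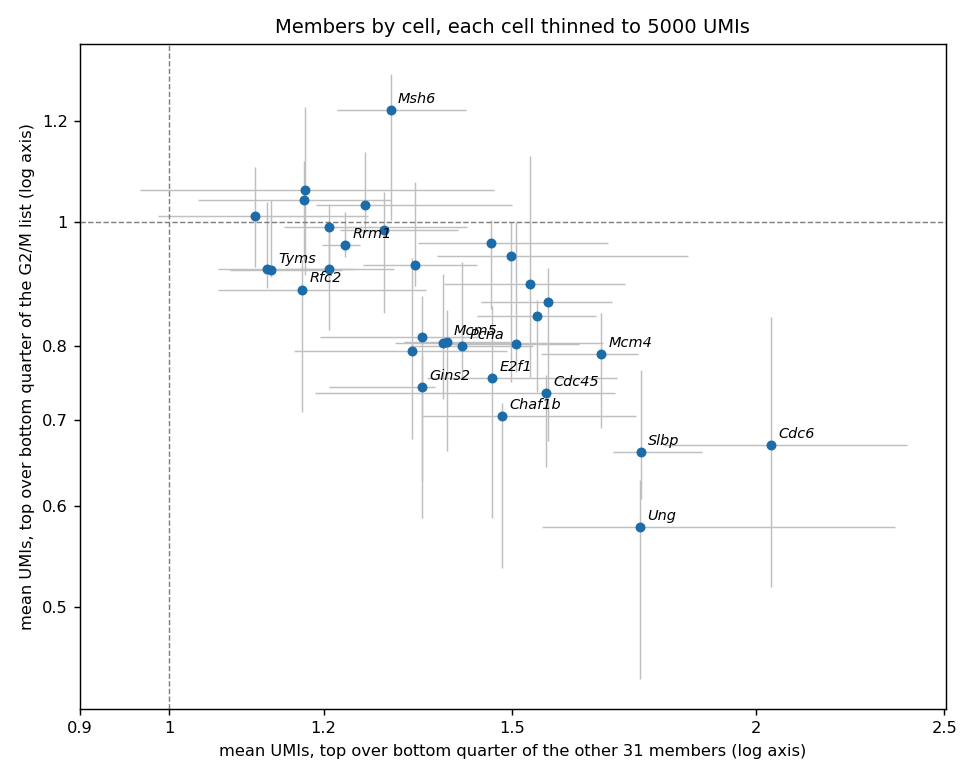
For each of the 32 genes, the mean UMIs in the top over the bottom 25% of cells ranked by the other 31 genes (x) and by the G2/M list (y), on log axes, with the point at the median and grey bars over the range of the 4 libraries. Cdc6, Slbp and Ung lie furthest to the lower right, and Msh6 lies highest.

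The G1/S cyclin genes Ccne1 and Ccne2 were used as a loose mark of the G1/S side of the cycle. Ccne1 itself had top over bottom ratios of 0.83 to 0.94 by the G2/M list. Cells with at least 1 UMI of either among 5000 numbered 3108, 5671, 3645 and 4935 in libraries 1 to 4. They made up 38.3, 66.6, 46.2 and 66.1% of the cells and were not shown to be in 1 phase. In these cells Cdc6 was higher by 1.23, 1.33, 1.45 and 1.2 times and Slbp by 1.21, 1.25, 1.3 and 1.21 times than in the remaining cells. They were the only 2 of the 32 to reach 1.2 in every library, against 0.0477% of other genes. Without cells over 2 times the median UMI count only Slbp did, and doublets were not called. None was lower by 1.2 times in every library, against 0.262% of other genes, and 23 of the 32 had a ratio above 1 in every library, against 21.2% of other genes. Free RNA in droplets can also give a cyclin UMI to a cell, and its part was not tested.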

How the data were processed

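The authors deposited a single matrix of raw counts of UMIs per gene and barcode, made from 4 libraries. Per the labels and the study's methods, reads were mapped to mm10 with Cell Ranger 6.1.2 and the libraries joined with its aggregation step, which by default subsamples reads to even out depth between libraries, so depth is less unequal than as sequenced. The annotation version of the matrix was that of the mapping reference, and gene positions given here come from GENCODE vM21 (GRCm38).

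Cells were kept at or above the mean minus 1 SD of their library in UMIs and genes and at most 10% mitochondrial UMIs, after the study. Doublets were not called, and 1615 kept cells above 2 times the library median in UMIs were left out in an alternative. Clusters used 2000 variable genes less 19 cell cycle genes, 20 components and leidenalg 0.10.2 at resolution 0.2 (igraph 0.11.9, R 4.3.3 for loess, Python 3.11.15, SciPy 1.17.1), with no batch correction, where the study used Harmony and Seurat's clustering functions. Cluster labels thus may differ from the study's. Clusters of at least 100 cells in a library were compared, on summed counts. Cells were thinned to 5000 UMIs for values per cell, and no kept cell was shallower. Intervals are exact at 95%, and the floor of a count of 0 was 3 counts.

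The planned test of genotype could not be made, since library numbers are not tied to samples. The 32 genes, the other lists and the tests were chosen with earlier results of these data known. All 32 genes are accounted for. Values in every library are given for genes with a ratio of at least 1.5 and for the steadiest gene of each group, and further genes were named where a result turned on them. The scripts were tested on simulated data. The G2/M result of 1 gene of the second list is not reported here.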

Additional observations from a re-analysis of the deposited data

Results flagged for a closer look

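Barcodes that the cell filter removed are used in no comparison and are given as values only. Over the 1417, 3222, 1804 and 2710 removed barcodes of libraries 1 to 4, the summed level was 3471, 3679, 3380 and 3339 CPM, where a count of 0 would allow 0.592, 0.266, 0.466 and 0.373 CPM. Genes found in most cells pass such a limit at these totals, so passing it carries no information of its own. In the kept cells of the same libraries it was 3678, 3762, 3400 and 3423 CPM. The removed barcodes had a median of 2429 to 3216 UMIs.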

How the results depend on the processing

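No paired analysis was possible because the library numbers are not tied to the labelled replicates. The highest over the lowest library of the summed level was 1.11. It was 1.18 with libraries scaled to the median gene, 1.1 without cells over 2 times the median UMI count and, in an alternative added after seeing the data, 1.095 without fine cluster 7. The 54 gene and pair combinations became 108 at a fold of 1.1 and 4 at a fold of 1.5, and the mean of 8.67 genes per comparison of states became 16.8 and 1.5 at those folds. The cause of each change by fold is the limit itself. The 4 genes that moved with the others at a fold of 1.5 became 19 at a fold of 1.2 and 0 at a fold of 2, 7 with cells thinned to 10000 UMIs (Mcm6, Cdc45 and Dtl added) and 8 between the top and bottom 10% of cells. The 5 genes lower in cells with high G2/M genes became 8 at 10000 UMIs, which left 31137 cells (Cdc45 lost and Mcm4, Mcm5, Cdc6 and Prim1 added), 3 with 10% of cells (Chaf1b, Slbp and Ung) and 9 without cluster 5, an alternative added after seeing the data. Leaving out each library in turn gave 5 to 11, with 11 without library 3. A rule over fewer libraries can only keep or raise such a count. The 2 genes higher in cells with a cyclin UMI became 1, Slbp, without cells over 2 times the median UMI count. The cause of these changes was not tested. Across the remaining alternatives, each of these summary counts stayed within 1.5 times the value reported, though single comparisons of clusters moved further. Cluster 2 of library 4 had only 183 cells, and the 6 genes higher in cluster 3 and the 4 higher in cluster 4 than in it became 11 and 11 without the mitochondrial limit, without cells over 2 times the median UMI count, and with cell cycle genes kept in the clustering. Shares over all genes were not taken for these alternatives.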
